A study of Mus musculus with 6 samples.

Results

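Chemokines, interleukins and their receptors were examined in satellite cells, which are the resident stem cells of muscle, from young and adult mice. The genes were chosen by name. They comprise every array probe whose gene symbol opens with Ccl, Cxcl, Ccr, Cxcr or Il followed by a number, together with Cx3cl1 and Cx3cr1. The rule took 168 of the 55681 gene probes on the array, for 136 genes. These were 34 chemokine ligands, 19 chemokine receptors, 38 interleukin ligands, 40 interleukin receptors or co-receptors, 4 antagonists or binding proteins (Il1rn, Il1f5, Il18bp, Il22ra2) and 1 enzyme named after an interleukin, Il4i1. Symbols are those of the array, and some are old: Cxcr7 is now Ackr3, Il1f9 encodes an interleukin-36 and Il28b is now Ifnl3.

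Each of 6 arrays held the RNA of 1 sample of male C57BL/6 mice, with no transgene or treatment in the labels. Young replicates 1 and 3 were 3 months old and young replicate 2 was 2 months old, while all 3 adult replicates were 6 months old, so young and adult differ by 3 to 4 months. Each sample is labelled a biological replicate; the labels are silent on whether animals were pooled. The RNA of the sorted cells went through whole transcriptome amplification, a step used for very small amounts of RNA, before Cy3 labelling. Values are log2 signals relative to the 75th percentile of their own array, and differences are adult minus young on that log2 scale.

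Chemokines are small secreted proteins that draw cells along a gradient by binding receptors that span the membrane and signal through G proteins. Interleukins are secreted signals between cells; many act through paired receptor chains and JAK kinases that phosphorylate STAT factors, whereas the interleukin-1 family acts through MyD88 and IRAK kinases toward NF-kB. In muscle, Ccl2 is known for drawing monocytes to injured fibres, the pair Cxcl12 and Cxcr4 for guiding muscle precursors, and gp130, the product of Il6st, for the response of satellite cells to interleukin-6.

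The genes on which the results turn were read by 60-base probes, and the first 30 bases of each are shown to identify the measured part of the transcript. Positions are those of the deposited files, in mouse build mm9; which exon each lies in was not analysed here. Il34 (chr8:113265835-113265894, minus strand) and Il16 (chr7:90791654-90791713, minus strand) had 1 probe each. Cxcl12 had a pair at chr6:117131227-117131286 and chr6:117125026-117125085, and Il1rl1 had 3, at chr1:40504769-40504828, chr1:40520014-40520073 and chr1:40522187-40522246, all on the plus strand.
Il34: aagaacgacggggtgcctcctaggatccca
Il16: aacagttctgtgagatgcaccctgccatga
Cxcl12, first probe: aggagaaggcagcttcctatatgcagcgtg
Cxcl12, second probe: gctgtaaacctcctaccgtatgtgggaatt
Il1rl1, probe at 40504769: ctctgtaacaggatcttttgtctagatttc
Il1rl1, probe at 40520014: ccttacccaaattgccattacagtcgagca
Il1rl1, probe at 40522187: gccattgactccttgtgtgttttcttcatg

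The arrays themselves differed in how much they detected. Young replicates 1 to 3 had 74.6%, 82.5% and 77.4% of all probes well above background, and adult replicates 1 to 3 had 85.5%, 89.4% and 89.7%. The first principal component of the tested genes held 66.6% of the variance, with young arrays from -177.1 to -46.1 and adult arrays from 100.6 to 142.0. All 10 satellite cell markers on the list (Pax7, Myf5, Itga7, Cd34, Vcam1, Calcr, Cdh15, Chodl, Sdc4 and Msc) were well above background on all 6 arrays. Fewer cells of a type and less RNA per cell cannot be told apart in such bulk samples.

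More of the cytokine and chemokine probes were detected on the adult arrays. Young replicates 1 to 3 detected 88, 108 and 102 of the 168 probes, and adult replicates 1 to 3 detected 113, 123 and 132, where detection means a signal flagged as well above background. The groups did not overlap, and young replicate 2, the 2-month sample, came closest to the adult arrays. As shares these were 52.4%, 64.3% and 60.7% against 67.3%, 73.2% and 78.6%, lower on every array than the share of all probes given above. Detection on the adult arrays alone was found for 31 of the 168 probes, or 18.5%, against 8.40% of all probes. Detection on the young arrays alone was found for 4, or 2.38%, against 0.799% of all probes. A further 81 probes, 48.2%, were detected on all 6 arrays, against 68.5% of all probes, and 21, 12.5%, on none, against 5.21%.

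Interleukin ligands had the lowest detection of the 4 classes on every array. Of their 41 probes, 17, 20 and 20 were detected on the young arrays and 25, 28 and 29 on the adult arrays, and 12 were detected on adult arrays alone. The 44 chemokine ligand probes gave 27, 30 and 32 on the young and 29, 36 and 36 on the adult arrays, where young replicate 3 was above adult replicate 1. The 23 chemokine receptor probes gave 11, 18 and 16 against 16, 16 and 20, and the 54 interleukin receptor probes gave 31, 38 and 30 against 40, 40 and 42. Taken by side, ligand probes were detected at 51.8% to 61.2% on young and 63.5% to 76.5% on adult arrays, and receptor probes at 54.5% to 72.7% and 72.7% to 80.5%. Ligand groups did not overlap, whereas receptor groups met at 72.7%, the value of young replicate 2 and of adult replicates 1 and 2.

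**Figure D1:**
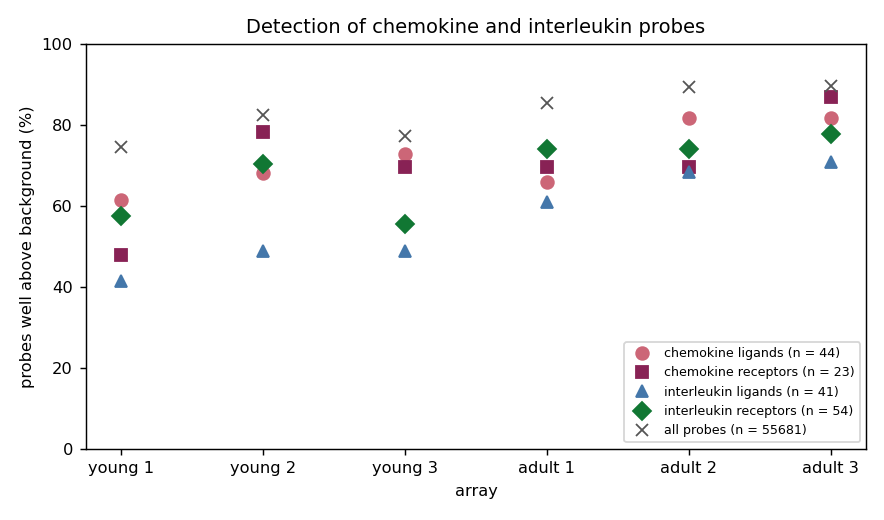
Share of probes well above background (vertical axis, percent) on each of the 3 young and 3 adult arrays (horizontal axis), with a symbol for each of the 4 classes and for all gene probes. All probes run from 74.6% to 89.7%, and interleukin ligands are the lowest on each array, from 41.5% to 70.7%.

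For the comparison of adult with young, genes with a probe well above background on at least 3 of the 6 arrays were tested with limma, with Benjamini-Hochberg adjustment over 32078 genes and a threshold of 0.05. Of the 136 genes, 92 were tested; the filter could be passed through one group alone, so these 92 are not the whole family. Higher in adult were 24 of the 92, and 0 were lower by limma (40 higher and 1 lower at an unadjusted p under 0.05). Over all genes tested, 20.0% were higher and 8.45% lower, and over protein-coding genes 15.2% and 12.1%. The median difference of the 92 was 0.78, against 0.30 over all genes. Among genes above background on all 6 arrays, 15 of 67 were higher with a median of 0.58, against 16.2% and 0.05 over all such genes.

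These counts rest on all 3 adult arrays. Without adult replicate 1, 2 or 3, limma called 0 of the 92 genes higher (33, 33 and 29 at an unadjusted p under 0.05). Without young replicate 1 or 3 it called 4 and 5, and without young replicate 2 it called 25. The share of all genes called higher moved likewise, to between 0.854% and 20.0%. By arrays, the adult values lay wholly above the young values for 39 of the 92 genes and wholly below for 4 (Il17ra, Ccl27a, Il17rc and Cxcr4), against 34.0% and 21.6% of all genes.

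**Figure D2:**
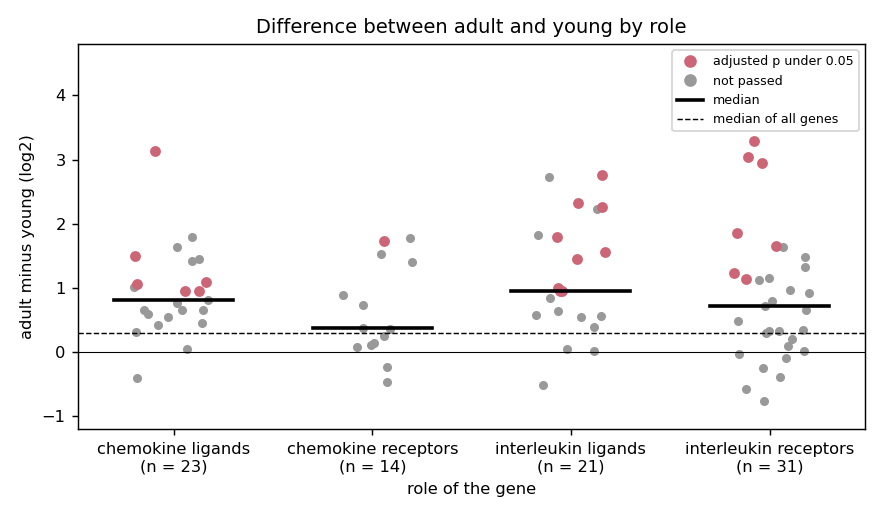
Adult minus young difference (vertical axis, log2) of each tested gene, by role (horizontal axis); red points passed the adjusted threshold, thick lines are medians and the dashed line is the median of all genes, 0.30. The medians stand at 0.82, 0.37, 0.96 and 0.72 from left to right, and every red point is above 0.

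Among the chemokine ligands, 6 of 23 tested were higher in adult, 0 lower by limma (11 higher and 0 lower before adjustment at 0.05), with a median of 0.82. The share higher was 26.1%, beside 20.0% of all genes. The 6 were Ccl2, Ccl9, Ccl11, Cxcl9, Cxcl14 and Cxcl16. Cxcl9, an interferon-induced attractant of T cells, was picked after its values were seen. It falls outside the rule, given with the processing, for which genes the text names. Ccl2, the monocyte attractant, read -1.55, -2.05 and -1.93 on the young arrays and -0.96, -0.79 and -0.92 on the adult arrays. Its 3 adult values were all above the young ones, a difference of 0.95 ± 0.21 (SE) or 1.94-fold (adjusted p = 0.0288). Ccl11, the eosinophil attractant eotaxin, read -3.54, -3.36 and -2.98 in young and -1.07, -2.12 and -2.20 in adult, 2.83-fold higher (adjusted p = 0.0343). Adult replicate 1 was the highest, and the groups were again apart.

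Cxcl16, a chemokine also made as a membrane-bound form, read -2.91, -2.51 and -3.40 in young and -1.74, -2.05 and -1.77 in adult, 2.13-fold higher (adjusted p = 0.0368). Cxcl14 read -2.97, -2.32 and -2.66 against -1.59, -1.86 and -1.65, 1.93-fold higher (adjusted p = 0.0346). Cxcl9 read -0.23, -0.33 and -0.80 against 0.57, 0.37 and 0.87, 2.08-fold higher (adjusted p = 0.0320). None of these 3 groups of values overlapped. A dimmer Cxcl9 probe did overlap and did not pass with every probe fitted on its own (1.55 ± 0.80 SE, adjusted p = 0.178). Ccl9, an attractant of myeloid cells, read -7.10, -5.14 and -7.77 in young and -2.83, -3.82 and -3.95 in adult (difference 3.13 ± 0.72 SE, adjusted p = 0.0318). It was above background on only 1 of the 3 young arrays, so the size of that difference is uncertain.

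Other chemokine ligands did not pass. Cxcl10, a second interferon-induced attractant of T cells, spread widely within each group, from -2.93 to -0.58 in young and from -1.55 to 0.23 in adult (difference 1.42 ± 0.74 SE, adjusted p = 0.170). Cxcl1, a neutrophil attractant, read 1.64, 1.40 and 2.12 in young and 3.25, 2.63 and 1.59 in adult (adjusted p = 0.223), where adult replicate 3 fell inside the young range. Ccl8 had adult values wholly above young ones, at -4.07, -3.10 and -2.75 against -5.26, -5.93 and -4.11, and missed the threshold at an adjusted p of 0.0569. Cx3cl1, a chemokine with a membrane anchor, had a difference of 0.82 ± 0.30 SE (adjusted p = 0.0791), and Cxcl5, another neutrophil attractant, 1.45 ± 0.53 SE (adjusted p = 0.0818). Ccl19, a ligand of Ccr7, had 0.46 ± 0.22 SE (adjusted p = 0.150) on the brightest of its 3 probes, which was the one used. With every probe fitted on its own, another Ccl19 probe passed, at 3.27, 3.12 and 3.37 in young and 4.10, 4.10 and 3.77 in adult (0.74 ± 0.20 SE, adjusted p = 0.0457), and the remaining one also had groups that did not overlap (adjusted p = 0.0618). In that fit 17.1% of all probes were higher and 6.39% lower.

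Cxcl12 and its receptors made no call in the 1-probe-per-gene fit. Cxcr4, the signalling receptor, was detected on all arrays and read 4.43, 4.51 and 4.50 in young and 4.25, 4.38 and 4.10 in adult. The adult values lay wholly below the young values, but the difference of -0.24 ± 0.17 SE did not pass (adjusted p = 0.303). Cxcr7, which takes up Cxcl12 without G protein signalling, had -0.46 ± 0.50 SE (adjusted p = 0.481). The first Cxcl12 probe read 0.70, 0.24 and 0.92 in young and 1.78, 0.92 and 0.94 in adult, with overlap (0.60 ± 0.32 SE, adjusted p = 0.187). The second read -2.55, -2.76 and -2.42 against -1.02, -1.85 and -1.31, with no overlap, and passed when every probe was fitted on its own (1.19 ± 0.27 SE, adjusted p = 0.0348). Both probes lay in the same direction.

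Of the chemokine receptors, 1 of 14 tested was higher and 0 lower by limma (5 higher and 0 lower before adjustment at 0.05), with a median of 0.37. The share higher was 7.14%, beside 20.0% of all genes. The 1 was Cxcr2, the receptor of neutrophil-attracting chemokines, at -4.89, -3.97 and -4.70 in young and -3.31, -3.00 and -2.05 in adult (1.73 ± 0.41 SE, adjusted p = 0.0338). It was above background on 2 of the 3 young arrays and on all adult arrays. Cxcr3, the receptor of Cxcl9 and Cxcl10, had adult values wholly above young ones but missed the threshold (1.78 ± 0.70 SE, adjusted p = 0.0964). Cx3cr1, the receptor of Cx3cl1, overlapped between groups at 0.25 ± 0.21 SE (adjusted p = 0.357). Cxcr6, the receptor of Cxcl16, had 0.08 ± 0.21 SE (adjusted p = 0.775) and Ccr7 0.38 ± 0.51 SE (adjusted p = 0.568). Among the 8 chemokine receptors above background on all arrays, 0 were higher and the median was 0.12.

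Interleukin ligands gave the largest share of calls of the 4 classes, 9 of 21 tested, with a median of 0.96. By limma 0 were lower (13 higher and 0 lower at an unadjusted p under 0.05). The share higher was 42.9%, beside 20.0% of all genes. Among those above background on all 6 arrays, 6 of 15 were higher, beside 16.2% of all such genes. The called Il1f9 and Il17b passed the filter through the adult arrays alone. Il34, a ligand of the macrophage colony-stimulating factor receptor Csf1r, read -0.71, 0.51 and 0.24 in young and 2.16, 1.38 and 1.89 in adult. It was 3.47-fold higher (1.79 ± 0.39 SE, adjusted p = 0.0287), with every adult value above every young value. Il16, a chemoattractant of CD4-bearing cells, read -1.99, -1.52 and -1.66 against -0.69, -0.24 and 0.12, 2.74-fold higher (1.46 ± 0.27 SE, adjusted p = 0.0247). These 2 were also past the threshold under each of the 6 other scalings or background corrections tried, with differences of 1.25 to 2.05 for Il34 and 0.92 to 1.60 for Il16. With single arrays left out, each passed in only 1 of 6 fits.

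In the interleukin-1 family, the ligands Il1b and Il1f9 and the antagonist Il1rn were higher in adult. The receptors Il1rl1, Il1rapl2 and Il18r1 also passed and are given further below. Il1r1, Il1rap, Il1r2 and Il18 did not pass. Other tested members did not pass either, and most of their values are not reported here. Il1b, the inflammatory cytokine interleukin-1 beta, read -3.77, -4.24 and -4.33 in young and -2.84, -2.52 and -2.28 in adult, 2.96-fold higher (adjusted p = 0.0205). Il1rn, the antagonist that occupies the interleukin-1 receptor, read -5.50, -5.31 and -4.51 against -2.98, -3.02 and -2.38 (2.31 ± 0.34 SE, adjusted p = 0.0187), but was above background on only 1 young array. Il1f9 was above background on no young and all adult arrays and was at least 2.57-fold higher (adjusted p = 0.0168). Over the 6 other scalings or corrections its difference ran from 0.28 to 2.41, so its bound holds only under the main scaling. Such a bound sets the adult mean against the mean over the young arrays of the gene's own signal or, where that is higher, the dimmest signal of any detected probe on that array. The signalling receptor Il1r1 had -0.24 ± 0.39 SE (adjusted p = 0.638), the co-receptor Il1rap 0.92 ± 0.65 SE (adjusted p = 0.289) and the decoy Il1r2 0.97 ± 1.02 SE (adjusted p = 0.467), and Il18 had -0.51 ± 0.49 SE (adjusted p = 0.429).

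Receptors of the same family that passed were low in young samples. Il1rl1, the receptor of interleukin-33, read -5.71, -5.61 and -7.59 in young and -3.55, -3.10 and -3.43 in adult on the probe at 40522187, which was above background on no young array, and was at least 4.07-fold higher (adjusted p = 0.0251). Its probe at 40520014 was above background on no young and 2 adult arrays, and the probe at 40504769 on none of the 6, so 1 of its 3 probes carries the call. Il1rapl2, a receptor-like relative of Il1rap known from neurons, was at least 3.00-fold higher on the same grounds (adjusted p = 0.0174). Both bounds hold only under the main scaling. Over the 6 others or corrections the difference ran from 0.44 to 3.09 for Il1rl1 and from 0.51 to 3.19 for Il1rapl2. Il18r1, the ligand-binding chain for interleukin-18, read -5.08, -4.88 and -7.70 in young and -3.78, -2.43 and -1.57 in adult (3.29 ± 0.92 SE, adjusted p = 0.0449), and was above background on 1 young array. Young replicate 3 was the lowest array for both Il1rl1 and Il18r1.

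The remaining called ligands were Il3, Il17b, Il24, Il25 and Il27, of which the last 3 were picked after their values were seen. Il27, a cytokine subunit made by antigen-presenting cells, had the tightest groups, at -1.33, -1.32 and -1.30 in young and -0.43, -0.37 and -0.28 in adult, 1.94-fold higher (0.96 ± 0.16 SE, adjusted p = 0.0220). Il24 was 1.99-fold higher (adjusted p = 0.0332) and Il25, of the interleukin-17 family, 1.94-fold higher (adjusted p = 0.0333). Il17b, of the same family, was above background on no young array and was at least 2.26-fold higher (adjusted p = 0.0308). Over the 6 other scalings or corrections the difference of Il17b ran from 0.16 to 2.46. Il3, a growth factor of blood cell precursors, read -5.77, -3.10 and -5.43 against -2.52, -2.35 and -1.14 (2.76 ± 0.78 SE, adjusted p = 0.0467), where young replicate 2 stood near the adult values. Il11, of the interleukin-6 family, overlapped between groups (0.56 ± 0.38 SE, adjusted p = 0.270), as did Il17d (0.05 ± 0.22 SE, adjusted p = 0.857). A dimmer Il17d probe had adult values wholly below young ones. With every probe fitted on its own it did not pass (-1.16 ± 0.48 SE, adjusted p = 0.116).

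Of the interleukin receptors, 7 of 31 tested were higher and 0 lower by limma (10 higher and 1 lower before adjustment at 0.05), with a median of 0.72. The 7 made up 22.6% of those tested, close to the 20.0% of all genes. Besides the 3 of the interleukin-1 family these were Il13ra1, Il31ra, Il9r and Il5ra. The last 2 fall outside the rule for which genes the text names. Il13ra1, a chain of the interleukin-13 receptor, read -4.37, -4.39 and -3.80 in young and -1.54, -2.87 and -2.61 in adult, 3.61-fold higher (1.85 ± 0.40 SE, adjusted p = 0.0287). Il31ra, a receptor chain related to gp130, read -2.09, -1.81 and -2.89 against -1.26, -0.47 and -0.09, 3.15-fold higher (adjusted p = 0.0365). Il9r was 2.35-fold higher (adjusted p = 0.0229) and Il5ra, the interleukin-5 receptor of eosinophils, 2.20-fold higher (adjusted p = 0.0253). All 4 had groups that did not overlap and were above background on all 6 arrays.

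Il6st, Il6ra and Il4ra, chains of the interleukin-6 and interleukin-4 receptors, gave no call, unlike Il13ra1, which can pair with Il4ra. Il6st read 1.03, 1.15 and 1.68 in young and 1.24, 0.79 and -0.46 in adult (-0.76 ± 0.47 SE, adjusted p = 0.235), and the low value was adult replicate 3. Il6ra, its ligand-binding partner, had 0.34 ± 0.41 SE (adjusted p = 0.523), and Il11ra1 had 0.03 ± 0.20 SE (adjusted p = 0.925). Il4ra read 3.80, 3.41 and 3.66 against 4.01, 3.61 and 3.56 (0.10 ± 0.22 SE, adjusted p = 0.716), and the decoy Il13ra2 had -0.09 ± 0.25 SE (adjusted p = 0.795). Il15ra, which presents interleukin-15, read 7.37, 7.07 and 6.74 against 7.75, 7.36 and 7.52 with overlap (adjusted p = 0.149). A dimmer Il15ra probe had adult values wholly above young ones. With every probe fitted on its own it did not pass either (0.38 ± 0.19 SE, adjusted p = 0.161). Il2rg, the chain shared by several interleukin receptors, ranged from -3.45 to -1.68 in young and from -2.06 to 0.00 in adult (adjusted p = 0.223).

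Il17ra, the shared receptor chain of the interleukin-17 family, was the 1 gene lower at an unadjusted p under 0.05. It read 0.64, 0.48 and 0.59 in young and -0.12, 0.26 and -0.15 in adult, with no overlap (-0.57 ± 0.20 SE, adjusted p = 0.0692). Under 3 of the 6 other scalings or corrections it passed as lower. Il17rd had 0.66 ± 0.36 SE (adjusted p = 0.185), Il3ra 0.34 ± 0.18 SE (adjusted p = 0.175), Il10rb -0.03 ± 0.48 SE (adjusted p = 0.958) and Il7r 0.80 ± 1.09 SE (adjusted p = 0.572). The interleukin-18 binding protein Il18bp had -0.01 ± 0.22 SE (adjusted p = 0.975) and Il4i1, an amino acid oxidase, -0.05 ± 0.27 SE (adjusted p = 0.898).

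**Figure D3:**
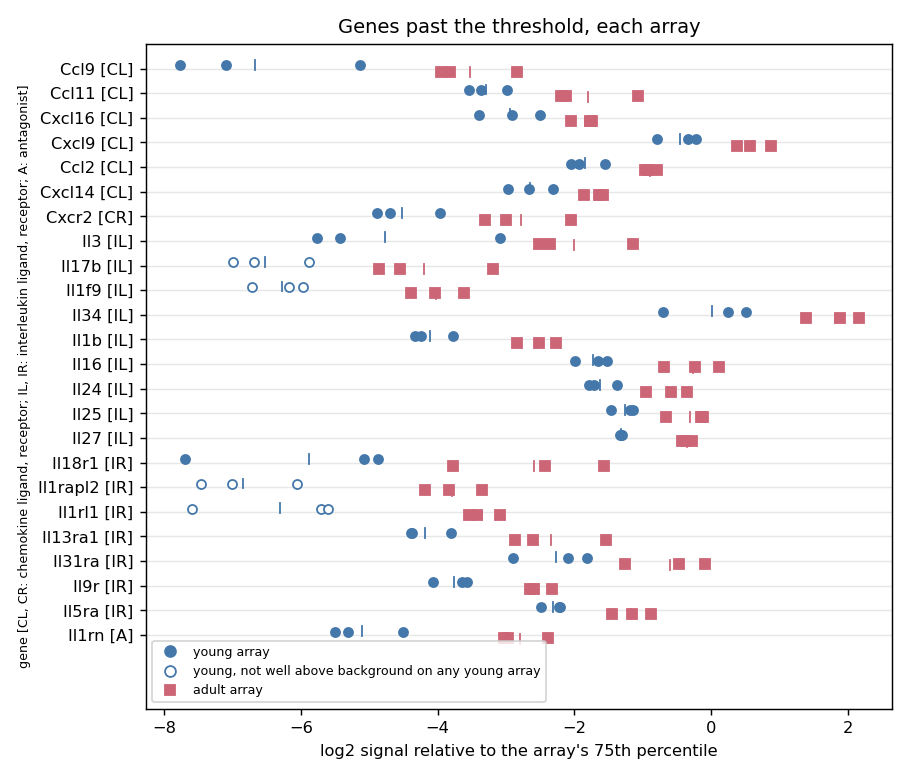
Signal of each array (horizontal axis, log2 scale, with each array's 75th percentile at 0) for the 24 genes past the threshold (rows), with circles for young and squares for adult arrays; open circles mark genes not above background on any young array and vertical ticks are group means. In each of the 24 rows the 3 squares lie to the right of the 3 circles, and Il34 reaches from -0.71 to 2.16.

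A further 44 genes were detected on too few arrays to be tested. Il10, Il4, Il7, Il10ra and Ccr1 were well above background on no array. The same held for Ccl1, Ccl20, Ccl22, Ccl28, Cxcl3, Cxcr1, Il5, Il12a, Il12b, Il17a, Il1f6, Il20ra and Il23r. These latter genes fall outside the rule for which genes the text names. Ccl7 and Ccr2, which serve monocyte traffic, and Il15 and Il33, the ligands of Il15ra and Il1rl1, were above background on 2 adult arrays and no young array. Il6, Il1a and Il13 were so on 1 adult array only. Cxcl2, a neutrophil attractant, went the other way, on 2 young arrays and no adult array. A level below background on these arrays is a limit of detection and not a statement that the transcript was absent.

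Ligands were called more often than receptors, which was not tested as a difference between the lists. Ligand genes gave 15 of 44 (34.1%) with a median of 0.95, and receptor genes 8 of 45 (17.8%) with a median of 0.66, beside 20.0% and 0.30 over all genes. Among genes above background on all 6 arrays, the ligands gave 11 of 33 with a median of 0.67 and the receptors 4 of 32 with a median of 0.32, beside 16.2% and 0.05. Where the processing could move these 2 medians apart or together, the ligand median stayed above: 0.62 against 0.12 after quantile normalization, 0.68 against 0.23 after cyclic loess, 0.63 against 0.35 with normexp correction and 0.79 against 0.73 when every probe was fitted. The receptor share is close to the share over all genes.

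How dim a probe was moved with the result. With all tested genes ordered by mean signal and divided into 4 groups of equal size, 32.0%, 23.0%, 14.8% and 10.3% were higher in adult from the dimmest group to the brightest, with medians of 1.44, 0.56, -0.05 and -0.31. The cytokine and chemokine genes fell mostly in the dim groups: 38, 21, 18 and 15 of them, of which 12, 6, 5 and 1 were higher. Their medians in the same order were 1.39, 0.85, 0.66 and 0.32. In the dimmest group the median was slightly below that of all genes there, while in each of the other 3 groups it lay above. The 1 call in the brightest group was Il34.

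**Figure D4:**
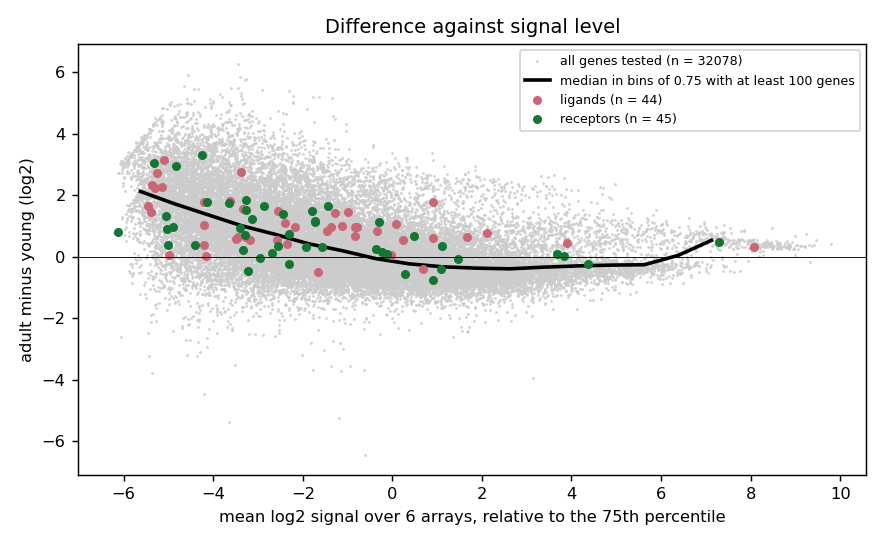
Adult minus young difference (vertical axis, log2) against mean signal over the 6 arrays (horizontal axis, log2 relative to the 75th percentile) for the 44 tested ligands (red), the 45 tested receptors (green) and all 32078 genes (grey); the line is the median of all genes in bins of signal. The line stands above 0 among dim genes and below 0 over much of the bright range, and it turns upward at the brightest genes.

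Scaling the arrays differently moved the counts and, for some genes, the sign. On the same 92 genes, 12 were higher and 4 lower (Ccl27a, Cxcr4, Il17ra and Il17rc) with arrays set to a common median, 7 and 0 after quantile normalization, and 9 and 1 (Il31) after cyclic loess. With normexp background correction 34 were higher and 1 lower (Il17ra), and in the authors' deposited log2 values 8 and 1 (Il17ra). As a share, genes higher made up 13.04% of the 92 with a common median, against 10.75% of all genes. That share was 7.61% against 9.31% after quantile normalization, 9.78% against 10.1% after cyclic loess and 8.70% against 13.8% in the deposited values, so in these 3 the genes were called no more often than all genes. With normexp correction it was 37.0% against 26.9%. The median over all genes shifted with the scaling, from 0.30 to -0.24, -0.03, 0.06, 0.25 and -0.01 in the same order. The median of the 92 relative to that of all genes was 0.48 as reported, and 0.48, 0.36, 0.40, 0.22 and 0.17 in the same order. All 24 called genes remained positive under each of these settings and under scaling to probes detected on all arrays, where 31 were higher and 0 lower.

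**Figure D5:**
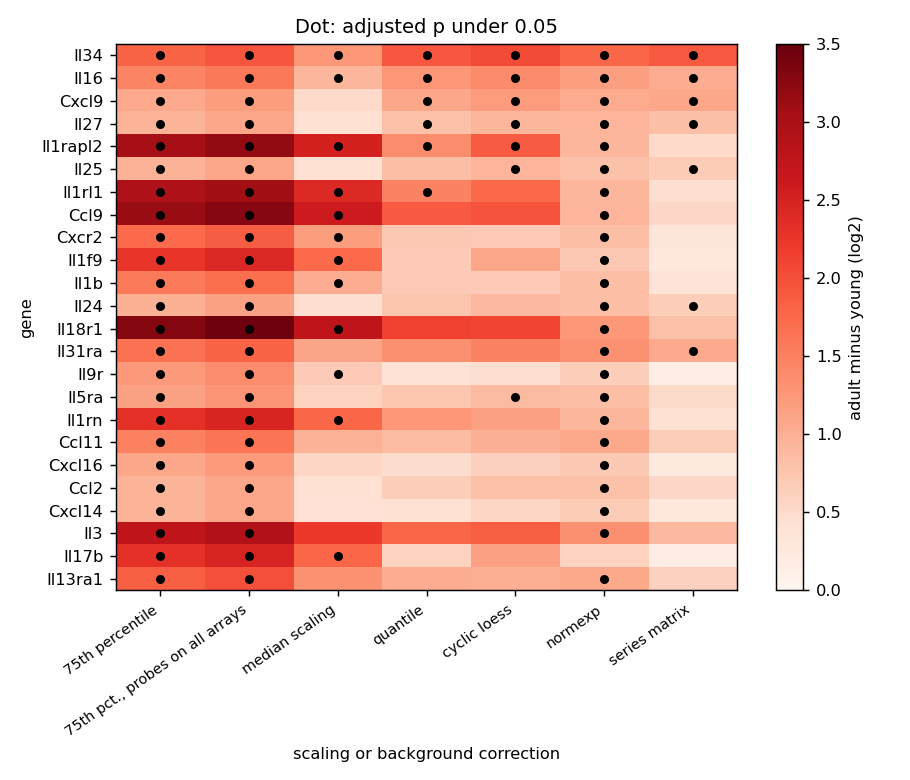
Adult minus young difference (colour, log2) of the 24 called genes (vertical axis) under the main scaling and 6 others or background corrections (horizontal axis); a dot marks an adjusted p under 0.05. Each of the 24 genes is above 0 in all columns, and only Il34 and Il16 carry a dot in each of them.

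Few related genes with other names passed the test, in a fit where 20.0% of all genes were higher and 8.45% lower. Of 9 further chemokines and chemokine receptors, 1 was higher and 0 lower by limma (2 and 1 at an unadjusted p under 0.05): Ppbp, a platelet chemokine that binds Cxcr2, was above background on no young and all adult arrays and was at least 2.92-fold higher (adjusted p = 0.0177). Pf4 went the other way, above background on 3 young arrays and 1 adult array. Its adult values lay wholly below the young values, without passing (-2.26 ± 0.85 SE, adjusted p = 0.0867). Of 10 further cytokines and receptors of the interleukin-6 family, such as Lif, Osm and Lifr, 0 passed by limma (2 higher and 0 lower before adjustment at 0.05), with a median of 0.30. Of 5 tested in the common beta and thymic stromal family, 1 was higher: Tslp, a cytokine made by epithelial cells, read -3.09, -4.73 and -3.75 in young and -0.69, -1.34 and -1.45 in adult, 6.49-fold higher (adjusted p = 0.0221). Among 30 signalling genes tested, 2 were higher and 2 lower, with a median of -0.11. Cish, an inhibitor induced by STAT5, was 5.09-fold higher (adjusted p = 0.0385). Rgs2, which shortens G protein signals, fell by 0.92 (adjusted p = 0.0269) and Irak1, a kinase below the interleukin-1 receptors, by 0.74 (adjusted p = 0.0442). Ppbp, Tslp, Cish, Rgs2 and Irak1 each kept their sign under the 6 other scalings or corrections. The difference of Ppbp ran from 0.54 to 3.79 over these, so its bound holds only under the main scaling.

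Markers of other cells were read in the same contrast, where 20.0% of all genes were higher and 8.45% lower. Of 22 leukocyte markers, 18 were tested, 6 were higher (among them Tyrobp, Cd14, Adgre1, Cd79a and H2-Aa) and 0 lower by limma (8 and 0 before adjustment at 0.05), with a median of 0.98; Cd53 and Cd3g were above background on no array, and S100a8 and Mrc1 on 1. Ptprc, the pan-leukocyte marker CD45 against which the cells were sorted, had 0.49 ± 0.34 SE (adjusted p = 0.278) and Csf1r, the receptor of Il34, 0.37 ± 0.18 SE (adjusted p = 0.152). The log2 of the summed leukocyte signal ran from 7.78 to 8.74 on young and from 8.57 to 8.66 on adult arrays, with overlap. Itgam, which encodes CD11b, another marker the cells were sorted against, alone supplied 95.5% to 97.5% of that sum. Without it the sum ran from 3.16 to 3.43 on young and from 3.82 to 3.94 on adult arrays, with no overlap. Csf1r, which did not pass, was by far the brightest of those left. It read 2.83 to 3.16 on young and 3.32 to 3.43 on adult arrays. All 18 tested leukocyte markers were positive. Mural markers gave 4 of 7 higher and 1 lower, with the same sum at 3.95 to 4.40 in young and 3.99 to 4.57 in adult; without Acta2, the brightest, it was 1.98 to 2.91 and 3.63 to 4.39, with no overlap. Endothelial markers gave 1 of 10 higher and 0 lower (2 and 0 at an unadjusted p under 0.05), with sums of 4.23 to 4.87 and 4.28 to 4.76. Fibro-adipogenic markers gave 1 of 7 higher and 2 lower, with Pdgfra above background on no array and sums of 6.20 to 6.33 and 4.84 to 5.45. Col3a1 supplied 69.5% to 87.9% of that sum. Without it the sums were 3.39 to 4.26 in young and 2.38 to 3.42 in adult, with overlap. Of the satellite cell markers, 5 of 10 were lower and 0 higher by limma (5 and 0 at an unadjusted p under 0.05), with sums of 7.09 to 7.29 and 6.65 to 7.06. The part of these markers, of the number of detected probes and of probe brightness in the chemokine and interleukin differences was not tested.

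Promoter sequence gave a feature that the choice by name did not use. In RefSeq windows of 250 bases upstream of the start site (GRCm38.p6), available for 104 of the 136 genes, the NF-kB consensus was present on either strand in 16, or 15.4%, against 8.23% of 27025 genes. By class it was present in 7 of 23 chemokine ligands, 3 of 15 chemokine receptors, 3 of 28 interleukin ligands and 3 of 34 interleukin receptors. Of the 24 genes higher in adult, 16 had a window and 2 held a match, Ccl9 and Il16. The interferon-response motif TTTCNNTTTC was found on either strand in 5 windows (4.81%, against 3.46%), and TATAAA in 24 (23.1%, against 14.3%). Below are the window of Ccl9, a called gene with an NF-kB match, and that of Cxcl10, an uncalled gene with both motifs. Capitals mark NF-kB matches and, as the first run in Cxcl10, the interferon-response match; no NF-kB match overlaps the interferon-response match. The last run in Cxcl10 holds a pair of NF-kB matches that overlap each other, starting 104 and 103 bases before the start site. The windows are chr11:83578637-83578886 and chr5:92348890-92349139, both of the minus strand, and a match is only a match of letters.
Ccl9: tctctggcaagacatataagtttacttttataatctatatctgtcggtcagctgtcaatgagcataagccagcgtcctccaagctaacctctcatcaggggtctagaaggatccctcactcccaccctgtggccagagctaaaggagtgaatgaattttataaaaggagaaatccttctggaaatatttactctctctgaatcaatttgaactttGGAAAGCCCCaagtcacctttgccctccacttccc
Cxcl10: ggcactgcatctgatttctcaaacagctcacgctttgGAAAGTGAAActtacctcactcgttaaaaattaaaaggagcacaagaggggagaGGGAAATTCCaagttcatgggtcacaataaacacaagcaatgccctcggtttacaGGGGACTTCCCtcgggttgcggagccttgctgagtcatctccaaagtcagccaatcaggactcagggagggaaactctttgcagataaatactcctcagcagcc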

How the data were processed

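Satellite cells sorted from muscle as integrin α7+ and CD34+, and negative for CD31, CD45, CD11b and Sca1, were hybridised to 1-colour Agilent arrays. Scanning output was extracted with Feature Extraction 10.7.3.1, per the submitters' processing notes. The deposited processed signals are intensity values, background-subtracted per the file headers. The deposited log2 series table had a median of 7.56 in each array and differed by at most 0.000106 from normexp correction (offset 50) with quantile normalization of the same scans. The flags for detection and outliers are those of the deposited scans.

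Outlier spots were left out, log2 was taken, spots of a probe were averaged on that scale and each array's 75th percentile over 55681 probes was subtracted. Control spots (3671 of 62976) were left out, and 0 of the probe signals were saturated. For each gene the probe with the highest mean was used, after a filter of well above background on at least 3 arrays. R 4.3.3 and limma 3.58.1 (lmFit and eBayes, two-sided) gave adjusted p-values, with Benjamini-Hochberg adjustment over 32078 genes at 0.05; the fit was checked on simulated data. With 3 arrays a group, their number limits the precision.

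The genes, their roles and the lists of related genes and markers were chosen with earlier results of these data known. Genes named in the text are those past the threshold, up to 15 by size of difference, and a listed set of cytokines and receptors. Most others are said to have been picked afterwards or to fall outside the rule. Il18bp, Il4i1, Ccl27a, Il17rc and Il31 also fall outside it. Ccl21a, one of the listed set, was not analysed here, and the values of a few listed genes are not reported here. Names were updated through RefSeq accessions where these matched (26300 probes by accession, 2044 by symbol, 355 by older symbol, 26982 kept the array's name); the 168 probes studied kept their array symbol. Closely related copies (Ccl19, Ccl27a and Il11ra1, Ccl6 and Ccl9) may share a probe's signal.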

Additional observations from a re-analysis of the deposited data

How the results depend on the processing

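The 24 genes higher in adult kept their sign in each of the 6 other scalings or corrections. Of their calls, 2 were made in all 6 (Il34 and Il16), and 0 with each array left out in turn by limma. The number of genes higher was 12 with a common median, 7 after quantile normalization, 9 after cyclic loess and 8 in the deposited log2 values; the number lower was 4, 0, 1 and 1, and was 1 with normexp correction and 1 with a trended robust variance. Other filters, probe rules, normexp correction, scaling to probes above background on all arrays, the trended robust variance and array weights gave 18 to 34 higher. The number of these genes or probes tested there ran from 67 to 136, so the counts are not on 1 base. Their share higher was 23.7% to 37.0%, against 17.1% to 26.9% of all genes or probes. As a share of these genes against the share of all genes, the first 4 settings gave 13.04% against 10.75%, 7.61% against 9.31%, 9.78% against 10.1% and 8.70% against 13.8%. The median difference of ligands and of receptors was 0.41 and 0.12 with a common median, 0.62 and 0.12 after quantile normalization, 0.68 and 0.23 after cyclic loess, 0.63 and 0.35 with normexp correction, 0.32 and 0.090 in the deposited values, and 0.67 and 0.32 with the filter on all 6 arrays. Array weights gave 0.43 for receptors. Leaving out single arrays gave 0 to 25 genes higher, 0 to 0 lower, ligand medians of 0.87 to 1.01 and receptor medians of 0.36 to 0.73. Calls without an array rest on fewer samples, and the causes of the other changes were not tested.

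The replicate number as a block gave 0 genes higher and 0 lower by limma (35 higher and 0 lower at an unadjusted p under 0.05), for all genes as well as these. Deviations of same-numbered young and adult arrays correlated at -0.0024, -0.094 and -0.142, so the pairing rests on a shared number only. The first of the last 2 numbers in the sample descriptions, whose meaning the labels do not give, gave 15 genes higher as a block, 14 of them among the 24 (16.3% of these genes, against 14.9% of all genes). Within its first value (2 young arrays, 1 adult) 77 of 92 genes were positive with a median of 0.64, and within its second (1 young, 2 adult) 75 of 92 with 0.93, and all 24 called genes were positive in both. With the flag for positive and significant signal in place of well above background, detection of the 168 probes was 75.2% ± 4.62 (SD, n = 3) on young and 89.5% ± 1.50 (SD, n = 3) on adult arrays, against 59.1% ± 6.11 and 73.0% ± 5.66. The causes were not tested.

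Of the 92 genes, 80 were positive as reported, and 59 with a common median, 58 after quantile normalization, 65 after cyclic loess and 58 in the deposited values. The signs below are those of the genes past the threshold and of the listed set only, and other genes turned as well. Among these, signs turned only for ones that did not pass. With arrays set to a common median, the sign turned for Cx3cr1 at -0.29, Ccl19 at -0.085, Ccr7 at -0.16, Cxcr6 at -0.46, Il6ra at -0.20, Il11ra1 at -0.51, Il4ra at -0.44, Il15ra at -0.056, Il3ra at -0.20 and Il17d at -0.49. With scaling to probes above background on all arrays, the sign turned for Il13ra2 at 0.054 and Il10rb at 0.11. After quantile normalization, the sign turned for Ccr7 at -1.07, Il1r2 at -0.37, Il6ra at -0.32, Il11 at -0.29, Il13ra2 at 0.13 and Il7r at -0.23. After cyclic loess, the sign turned for Ccr7 at -0.79, Il1r2 at -0.22, Il6ra at -0.19, Il11 at -0.25, Il13ra2 at 0.20 and Il7r at -0.35. With normexp correction, the sign turned for Cxcr6 at -0.031, Il11ra1 at -0.082 and Il10rb at 0.10. In the deposited log2 values, the sign turned for Ccr7 at -0.19, Cxcr6 at -0.055, Il1rap at -0.014, Il6ra at -0.18, Il11 at -0.14, Il13ra2 at 0.21 and Il7r at -0.089. With the mean of a gene's probes, the sign turned for Il17d at -0.55. With array weights, the sign turned for Il13ra2 at 0.026 and Il10rb at 0.21. With that number in the description as a block, the sign turned for Il10rb at 0.074. With single arrays left out, the sign turned in at least 1 fit for Il13ra2 from -0.19 to 0.085, Il10rb from -0.47 to 0.37, Il11ra1 from -0.081 to 0.17, Il4ra from -0.037 to 0.19, Il17d from -0.084 to 0.17, Il18 from -0.81 to 0.054, Cxcr6 from -0.020 to 0.19, Cxcr7 from -0.88 to 0.042, Ccr7 from -0.10 to 0.93 and Il1r1 from -0.56 to 0.18. Signal over background limits the rest: 44 of 136 genes were above it on too few arrays to test.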
